A study of Bos grunniens with 18 samples.

Results

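Whole-blood transcripts were related to the circulating cortisol of the same cow at the same sampling, within each reproductive stage. All 18 of the 18 libraries entered the regression, 6 in anestrus (the Y-A group), 6 in estrus (the Y-E group) and 6 in pregnancy (the Y-P group), and 14508 of the 20607 genes in the deposited table had enough counts to be tested. The animals were adult female yaks (*Bos grunniens*) aged 4 to 8 years from a herd kept for artificial insemination. The methods state that 6 cows were followed through the stages, that estrus was synchronised with a progesterone pessary, cloprostenol (a prostaglandin analogue) and GnRH, and that the cows were then artificially inseminated. Blood for RNA was drawn into EDTA tubes and put into TRIzol LS, while hormones were measured by mass spectrometry from a separate tube. Each library was matched to its hormone measurement by the sample name, and cortisol served only as the explanatory variable. The result for each gene is a slope, the difference in log2 CPM (counts scaled to a common library total) that goes with a doubling of cortisol between libraries of 1 stage, given with its SE.

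Cortisol is the main glucocorticoid of cattle and yaks and is released by the adrenal cortex under the control of the pituitary. In blood leukocytes it binds the glucocorticoid receptor, which is encoded by *NR3C1* and held ready by heat shock chaperones, and the receptor then enters the nucleus. There it raises transcription of genes such as *FKBP5*, *PER1*, *DUSP1* and *DDIT4* and restrains inflammatory genes driven by NF-kappa B and AP-1. Glucocorticoids also move leukocytes between blood and tissues, so a slope in whole blood can hold both a change of transcription and a change of cell numbers. In these bulk libraries fewer cells of a type and less RNA per cell cannot be told apart.

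Libraries held 30247267 to 48401076 counts. Cortisol did not vary to the same extent in each stage, and the Y-A group carried 75.6% of the sum of squares of log2 cortisol within stages, against 12.8% for the Y-E group and 11.6% for the Y-P group. Y-A replicate 5, the lowest in cortisol of its stage, and Y-A replicate 1, the highest, together held 67.1% of it. A slope pooled over the stages was therefore mostly a contrast within anestrus. Y-E replicate 6 stood apart in hemoglobin transcripts, which took 8.36% of its counts, while the other Y-E libraries lay between 0.0899% and 0.713%. It was also the Y-E library with the lowest cortisol. Defining leukocyte markers were present in every stage, and no T cell, B cell or neutrophil marker in the table was at 0 in every library.

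No gene passed an adjusted p of 0.05 for the pooled slope in the edgeR quasi-likelihood test (0 of 14508, 0% called, smallest adjusted p = 0.377). At an unadjusted p under 0.05 there were 1212 genes, 8.35% of those tested, with 813 positive slopes (5.6%) and 399 negative slopes (2.75%). The DESeq2 Wald test on the same counts called 26 genes, with a smallest adjusted p of 0.0227. Without Y-E replicate 6 edgeR again called 0 of 14653 genes (0%, smallest adjusted p = 0.396). In that fit 1211 genes had an unadjusted p under 0.05 (8.26%), 809 with a positive slope (5.52%) and 402 with a negative slope (2.74%), and 1025 of the 1212 were shared. The 813 positive and 399 negative slopes were those of TMM normalization. With library size alone there were 436 positive and 713 negative, and with limma on log2(FPKM + 1) 442 and 711, so the direction in which the whole set leaned depended on the scaling. The median slope of all tested genes was −0.0073 with TMM and −0.045 with library size alone.

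Among genes with a symbol, a mean of at least 1 CPM and 1 sign in all 18 fits that left out 1 library, the 12 with positive slopes and the smallest p included *IRF2BP1*, *UBALD2*, *SLC35E4*, *SREBF2*, *GPBAR1*, *DYNC2I2*, *RIN3*, *MAZ*, *SELENOO*, *TBC1D10A* and *PGLS*. Each had an adjusted p of 0.377 in the edgeR test. In the DESeq2 Wald test all 12 passed an adjusted p of 0.05. That test used the same counts from which the 12 were chosen, so it is not separate support. *IRF2BP1* (chr20:62203890-62205644), a transcriptional corepressor that works with IRF2, had the smallest p of the group, with a slope of 0.47 ± 0.097. Its level was 12.5 CPM in the Y-A library with the lowest cortisol, 46.7 CPM in the one with the highest, and had a median of 28.7 CPM in the Y-A group. In the Y-E group it ran from 24.9 to 54.2 CPM (median 32.5) and in the Y-P group from 22.2 to 38.0 CPM (median 34.2). The slopes within the 3 stages were 0.46 ± 0.12 in anestrus, 0.53 ± 0.28 in estrus and 0.42 ± 0.29 in pregnancy. The last 2 had an unadjusted p of 0.081 and 0.17 (edgeR). *IRF2BP1* had been chosen for its pooled slope on these same libraries, so the likeness of the 3 slopes is not separate support.

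*UBALD2* (chr19:9147039-9152274) had a slope of 0.45 ± 0.095. It ran from 29.1 to 95.7 CPM in the Y-A group (median 43.8), from 47.3 to 102 CPM in the Y-E group (median 56.5) and from 40.4 to 70.3 CPM in the Y-P group (median 56.3). The 6 Y-P libraries had the same order by *UBALD2* as by cortisol. In the Y-A group the level of 95.7 CPM in replicate 1 stood well above the other libraries, the next being 46.9 CPM, and leaving out 1 Y-A library at a time gave Y-A slopes from 0.082 to 0.48.

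*SREBF2* (chr5:121269861-121335802), the transcription factor that switches on cholesterol synthesis and uptake, had a slope of 0.34 ± 0.078. It lay at 169 CPM in the lowest-cortisol and 412 CPM in the highest-cortisol Y-A library, at 188 and 302 CPM in the corresponding Y-P libraries, and at 328 and 412 CPM in the Y-E libraries. The microRNA gene *MIR33A* lies inside *SREBF2* on the same strand. *GPBAR1* (chr2:33409338-33410327), the membrane receptor for bile acids, had a slope of 0.70 ± 0.16 at a mean of only 3.08 CPM. *RXRA*, the retinoid X receptor that pairs with bile acid and oxysterol receptors, had a slope of 0.29 ± 0.094 and was named from the pathway results given further on.

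*RIN3* (chr17:61574298-61728752), a guanine nucleotide exchange factor for RAB5 in endocytosis, had a slope of 0.33 ± 0.078 at a mean of 438 CPM. *TBC1D10A*, a RAB GTPase activating protein, had a slope of 0.34 ± 0.081, and the zinc finger factor *MAZ* one of 0.40 ± 0.093. *PGLS*, an enzyme of the pentose phosphate pathway, had a slope of 0.33 ± 0.079, *SELENOO*, a mitochondrial selenoprotein, one of 0.74 ± 0.18, and *DYNC2I2*, an intermediate chain of the ciliary dynein, one of 0.47 ± 0.11. *SLC35E4*, a solute carrier, had the steepest slope of the 12, 1.02 ± 0.23, at a mean of 2.09 CPM. For *MAZ* an unnamed gene overlaps on the same strand, and for *RIN3* a 5S rRNA gene on the other, so how reads were split there is uncertain.

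By the same rule the 12 genes with negative slopes were *AKAP12*, *LPAR6*, *ZNF226*, *CYB561D1*, *CXCR6*, *TAF13*, *ANKRD22*, *LIPT1*, *CLIP4*, *PSMC6*, *LY9* and *TTI2*. Each again had an adjusted p of 0.377 in the edgeR test, and *AKAP12* and *ZNF226* alone of these passed in the DESeq2 Wald test. *AKAP12* (chr10:113170760-113299532), a scaffold that tethers protein kinase A, had a slope of −1.02 ± 0.22. In the Y-A group it lay at 4.82 CPM in the lowest-cortisol library and 0.196 CPM in the highest, in the Y-E group at 4.98 and 2.91 CPM, and in the Y-P group at 9.67 and 2.83 CPM. In all 3 stages the library with the lowest cortisol had the highest *AKAP12* level of its stage.

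*LPAR6* (chr15:65366698-65367723), a receptor for lysophosphatidic acid, had a pooled slope of −0.30 ± 0.074 and, of the 24 names, the smallest p within a single stage. In the Y-E group its level was 82.3, 59.6, 57.6, 47.5, 39.3 and 33.0 CPM from the library with the lowest to the one with the highest cortisol, without an exception. The slope within the Y-E group was −0.94 ± 0.14 (adjusted p = 0.054 over all genes, edgeR), against −0.20 ± 0.055 in the Y-A group and −0.29 ± 0.14 in the Y-P group. Leaving out 1 Y-E library at a time gave Y-E slopes from −1.14 to −0.78, so Y-E replicate 6 did not set it alone. Among the Y-P libraries 4 lay between 91.2 and 92.2 CPM, and the 2 with the highest cortisol at 73.8 and 75.1 CPM. The 3 slopes differed at an unadjusted p of 0.000477, with an adjusted p of 0.71. *LPAR6* lies within *RB1* on the other strand.

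*CXCR6* (chr22:8577169-8581274), a chemokine receptor of activated T and NK cells, had a slope of −0.36 ± 0.095 and lay at 127 CPM in the lowest-cortisol and 49.7 CPM in the highest-cortisol Y-A library. *LY9* (chr3:8689519-8721147), a SLAM family receptor of lymphocytes, had a slope of −0.23 ± 0.063. *LY9* was highest in replicate 5 in all 3 stages, at 189 CPM in anestrus, 188 CPM in estrus and 196 CPM in pregnancy, while no other library exceeded 148 CPM. Replicate 5 had the lowest cortisol in the Y-A and Y-P groups but not in the Y-E group. With the replicate number, which stands for the cow, as a block, the slope of *LY9* was −0.092 (edgeR, adjusted p = 0.73). For *ANKRD22*, an interferon-inducible ankyrin repeat gene, the slope moved from −0.47 ± 0.13 to −0.089 with the block (edgeR, adjusted p = 0.846), and for *CXCR6* to −0.22 (edgeR, adjusted p = 0.594). The slopes of the other names moved less with the block, for *SREBF2* to 0.23 and for *UBALD2* to 0.44.

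Among the other negative slopes, *TAF13*, a subunit of the general transcription factor TFIID, had −0.41 ± 0.11, *PSMC6*, an ATPase of the proteasome cap, −0.24 ± 0.065, *LIPT1*, which transfers lipoic acid to mitochondrial enzymes, −0.74 ± 0.21, *CLIP4* −0.30 ± 0.081, *TTI2*, a cofactor of kinases of the PIKK family, −0.22 ± 0.062, *ZNF226* −0.23 ± 0.058 and *CYB561D1* −0.24 ± 0.062. *TAF13* and *PSMC6* overlap another gene on the same strand, and *TTI2* and *CXCR6* one on the other strand. All 24 named genes had a Y-A slope of the same sign as the pooled one. This followed largely from the choice of the genes by their pooled slope, to which the Y-A group contributed most. The plot of deviations from the stage mean shows how far replicates 5 and 1 set these slopes.

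**Figure D1:**
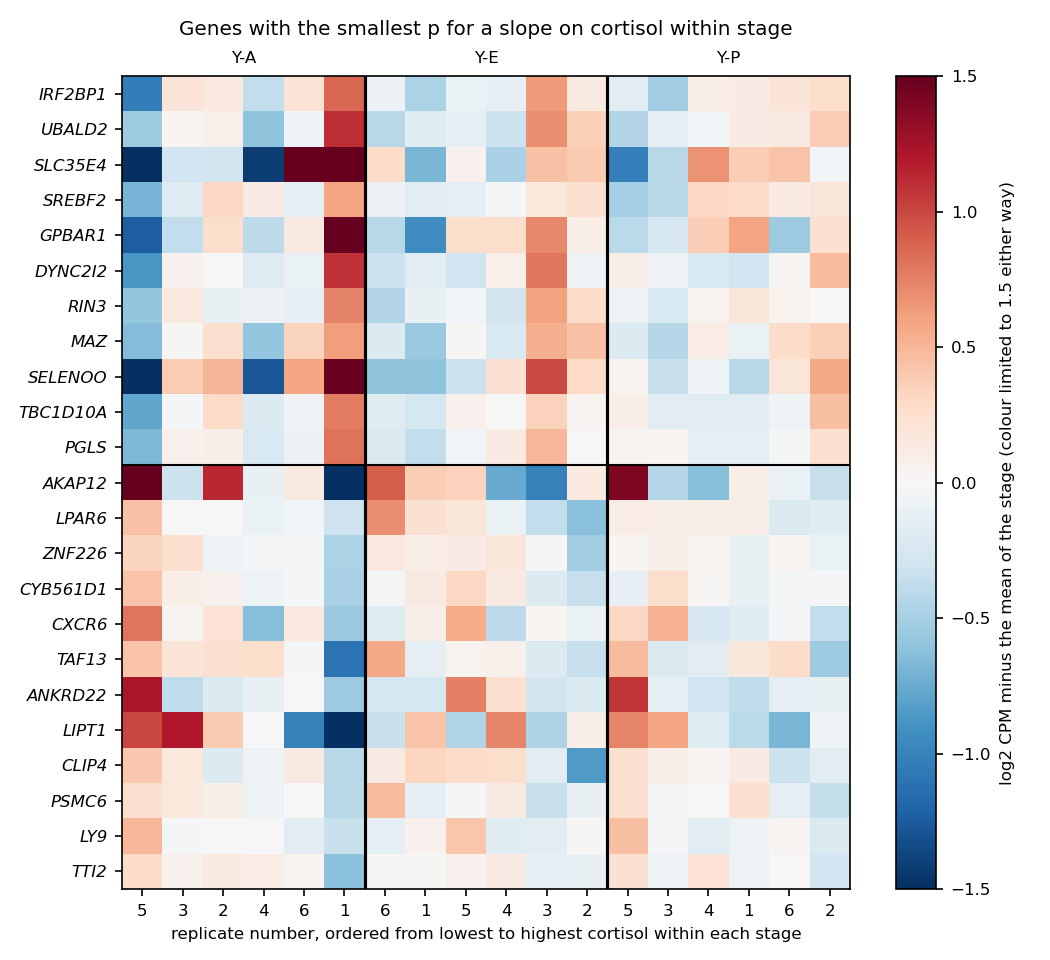
Deviation of log2 CPM from the mean of the stage for the 11 genes with positive slopes (above the line) and the 12 with negative slopes (below it) named in the text; columns are the 18 libraries, ordered from lowest to highest cortisol within each stage and marked by replicate number. The first and last columns of the Y-A block, replicates 5 and 1, hold opposite colours in all 23 genes, blue then red above the line and red then blue below it, and replicate 5 stands out again in Y-P for *AKAP12* and *ANKRD22*.

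Without Y-A replicates 1 and 5 the 24 named genes kept their sign. They had been chosen for 1 sign in the fits that left out 1 library. Most of the genes named with positive slopes were then not at an unadjusted p under 0.05 (edgeR). These were *IRF2BP1* (unadjusted p = 0.068), *SREBF2*, *GPBAR1*, *DYNC2I2*, *RIN3*, *SELENOO*, *TBC1D10A* and *PGLS*. On the negative side *CYB561D1*, *CXCR6* and *ANKRD22* were among those that were not. *UBALD2*, *SLC35E4*, *MAZ*, *AKAP12*, *LPAR6*, *ZNF226* and *TAF13* were among those still at this threshold. In this fit 606 genes instead of 1212 had an unadjusted p under 0.05, of which 180 were shared. Their lean was the other way, with 257 positive and 349 negative slopes. Of the 1212 genes, 1161 kept the sign of their slope without these 2 libraries, as did 72.8% of all tested genes. The 1212 had been chosen in a fit that included the remaining libraries, so a high share was largely given by that choice. Without Y-A replicate 1 alone 597 genes remained at the threshold, 371 of them shared, and without Y-A replicate 5 alone 1134, with 527 positive and 607 negative. Of the genes with positive slopes, 75.2% had a positive slope in each of the 3 stages, and of those with negative slopes 73.4% had a negative one, while 30.5% of all tested genes had 1 sign in each stage. The 75.2% and the 73.4% describe sets chosen on the same libraries. Genes on the positive side were more abundant, at a median of 25.4 CPM, than those on the negative side, at 15.9 CPM, or than all tested genes, at 16.1 CPM. They also spanned fewer bases of the genome, with a median of 14762 against 21172 on the negative side and 19431.5 overall.

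**Figure D2:**
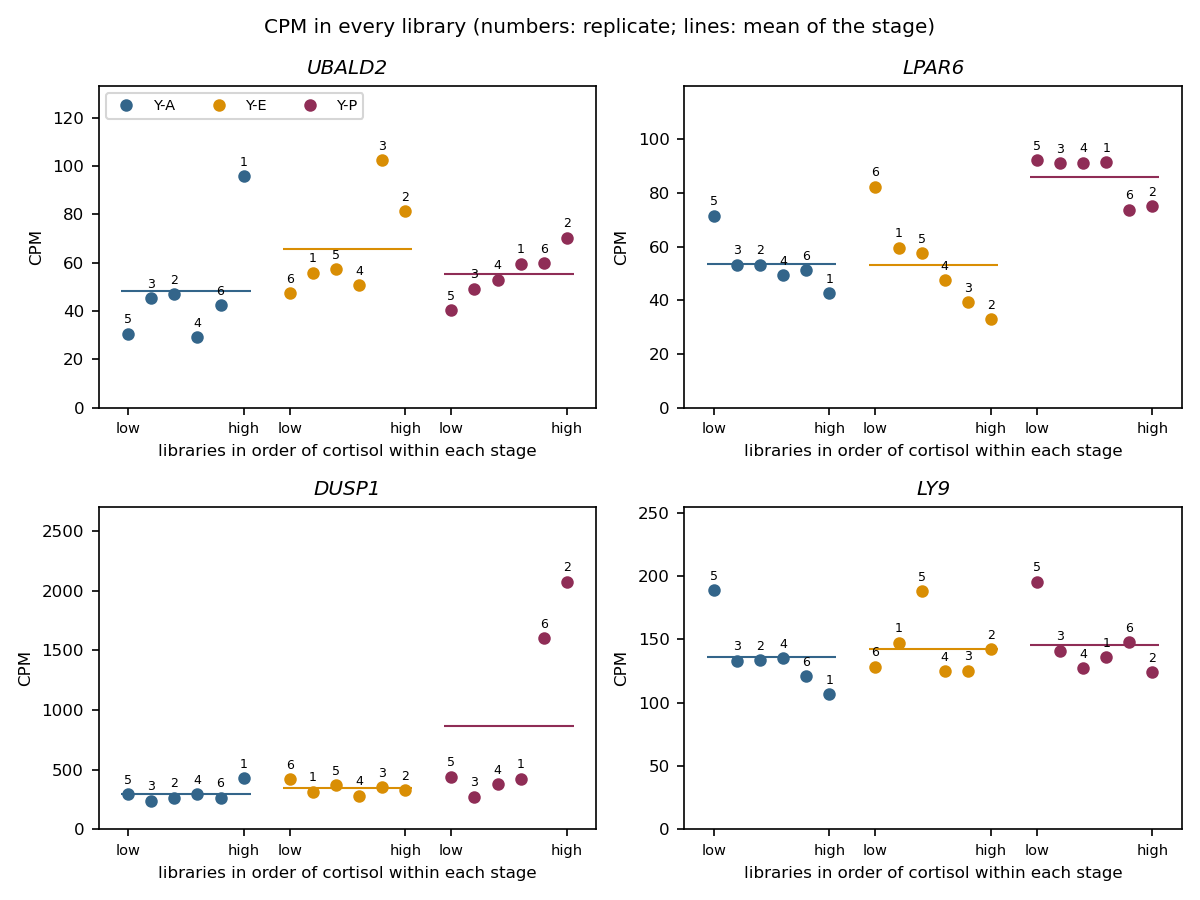
CPM of *UBALD2*, *LPAR6*, *DUSP1* and *LY9* in each of the 18 libraries, ordered by cortisol within stage, with the replicate number above each point and the stage mean as a line. *UBALD2* follows the order in Y-P, *LPAR6* runs down from 82.3 to 33.0 CPM in Y-E, *DUSP1* is high only in Y-P replicates 6 and 2, and replicate 5 is the highest for *LY9* in all 3 stages.

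Known glucocorticoid response genes were examined as a list of 29 names, of which 25 were in the table and all 25 were tested. *TSC22D3*, *ANXA1*, *NFKBIA* and *CEBPD* were not found under these names. In the pooled fit 18 of the 25 had a slope above 0, with a median of 0.078 against −0.0073 for all tested genes. The median was above 0 in all 32 other settings of the fit that used log2 cortisol, from 0.014 to 0.28, and was 0.043 with library size alone. Fits on ranked cortisol, on linear cortisol or on another hormone are not among these 32 settings. At an unadjusted p under 0.05, 5 were positive (5.6% of all tested genes) and 1 was negative (2.75%), and none passed the adjusted threshold. The positive ones were *CEBPB*, a transcription factor of the acute phase and of myeloid cells (0.83 ± 0.26), *IRS2*, an adaptor of the insulin receptor (0.87 ± 0.30), *THBD*, the anticoagulant receptor thrombomodulin (0.48 ± 0.15), *FOXO3* (0.19 ± 0.08) and *SOCS1*, an inhibitor of cytokine signalling (1.31 ± 0.45). *CEBPB* lay at 11.1 CPM in the lowest-cortisol and 88.3 CPM in the highest-cortisol Y-A library. With the replicate block *CEBPB* (0.64) and *SOCS1* (1.13) were not at the threshold. *IL1R2*, the decoy receptor for interleukin-1, had a slope of −0.62 ± 0.22, which was −0.013 with the replicate block and −0.0066 without Y-A replicates 1 and 5.

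Well known receptor targets had pooled slopes on both sides of 0. *DUSP1* had 0.35 ± 0.20, *DDIT4* 0.35 ± 0.17 and *PER1* 0.14 ± 0.13, all above the list median and none at the threshold. *FKBP5*, the co-chaperone that dampens the receptor, had a slope of −0.18 ± 0.23 (edgeR, adjusted p = 0.884). It ran from 105 to 450 CPM in the Y-A group (median 226), from 81.5 to 211 CPM in the Y-E group (median 151) and from 65.2 to 363 CPM in the Y-P group (median 208). In the Y-P group the lowest-cortisol library, at 363 CPM, and the highest, at 353 CPM, were the top of the group. The receptor gene *NR3C1* had a slope of −0.06 ± 0.10. *SGK1*, a kinase of ion transport, had −0.10 ± 0.17, *TXNIP*, an inhibitor of thioredoxin and of glucose uptake, 0.0056 ± 0.068, *KLF9* 0.22 ± 0.16, *ZBTB16* 0.06 ± 0.21, and *CD163*, the scavenger receptor of monocytes, −0.07 ± 0.21. Except for *DDIT4*, whose interval lay just above 0, the interval of 2 SE of each of these genes included slopes on both sides of 0.

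Taken stage by stage, the list looked different in pregnancy. These slopes were computed after the pooled values had been seen. Within the Y-P group 22 of the 25 genes had a slope above 0 and the median was 0.50, against 49.8% above 0 and a median of −0.0019 for all tested genes. The Y-A group had 14 of 25 above 0 and a median of 0.026, and the Y-E group 14 of 25 and a median of 0.11. Cortisol varied less in Y-P and Y-E than in Y-A, so their slopes were less certain. For *DUSP1* the SE was 0.37 in Y-P and 0.15 in Y-A. Of the other lists, the immediate-early (0.67), basophil (0.57) and BCL2 family (0.54) lists had higher Y-P medians, and the rest had lower ones. Within Y-P 6 of the 25 had an unadjusted p under 0.05 with a positive slope, beside 3.77% of all tested genes, and none had a negative one (5.16% of all). In the Y-A group 4 were positive (4.38% of all) and 1 negative (2.45%), and in the Y-E group 0 were positive (1.92%) and 1, the interleukin-7 receptor *IL7R*, negative (3.82%). No gene passed the adjusted threshold for a slope within any single stage (0% in each, edgeR, smallest adjusted p 0.365 in Y-P, 0.054 in Y-E and 0.63 in Y-A).

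*DUSP1* (chr23:2559079-2603097), the phosphatase that switches off MAP kinases, had the steepest Y-P slope of the list, 2.06 ± 0.37 (unadjusted p = 4.95e-05, adjusted p = 0.365). Its Y-P levels were 440, 273, 377, 422, 1602 and 2078 CPM from the lowest to the highest cortisol. The 2 libraries with the highest cortisol, replicates 6 and 2, did not overlap with the other 4, nor with any library of the Y-A group (238 to 426 CPM) or of the Y-E group (281 to 419 CPM). The slope was 0.14 ± 0.15 in the Y-A group and −0.15 ± 0.39 in the Y-E group, and the 3 slopes differed at an unadjusted p of 0.00058 (adjusted p = 0.71).

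*DDIT4*, an inhibitor of mTOR and a classical receptor target, had a Y-P slope of 1.53 ± 0.43, and lay at 26.3 CPM in the lowest-cortisol and 144 CPM in the highest-cortisol Y-P library. *PER1*, a clock gene with glucocorticoid response elements, had a Y-P slope of 1.08 ± 0.27 and lay at 15.9 and 49.9 CPM in these libraries, while the other 4 lay between 17.6 and 24.2 CPM. *RGS2*, a regulator of G protein signalling, had a Y-P slope of 0.97 ± 0.31, with 1064 CPM in replicate 6, 771 CPM in replicate 2 and 402 to 458 CPM in the others. *MAP3K6* (0.82 ± 0.34) and *ERRFI1*, a feedback inhibitor of the EGF receptor (0.66 ± 0.23), were the remaining ones at the threshold. For *PER1* the unadjusted p of a difference between the stages' slopes was 0.00466 (edgeR, adjusted p = 0.71), for *RGS2* 0.0126 (adjusted p = 0.737), for *DDIT4* 0.0305 and for *ERRFI1* 0.0471 (adjusted p = 0.746 for both).

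**Figure D3:**
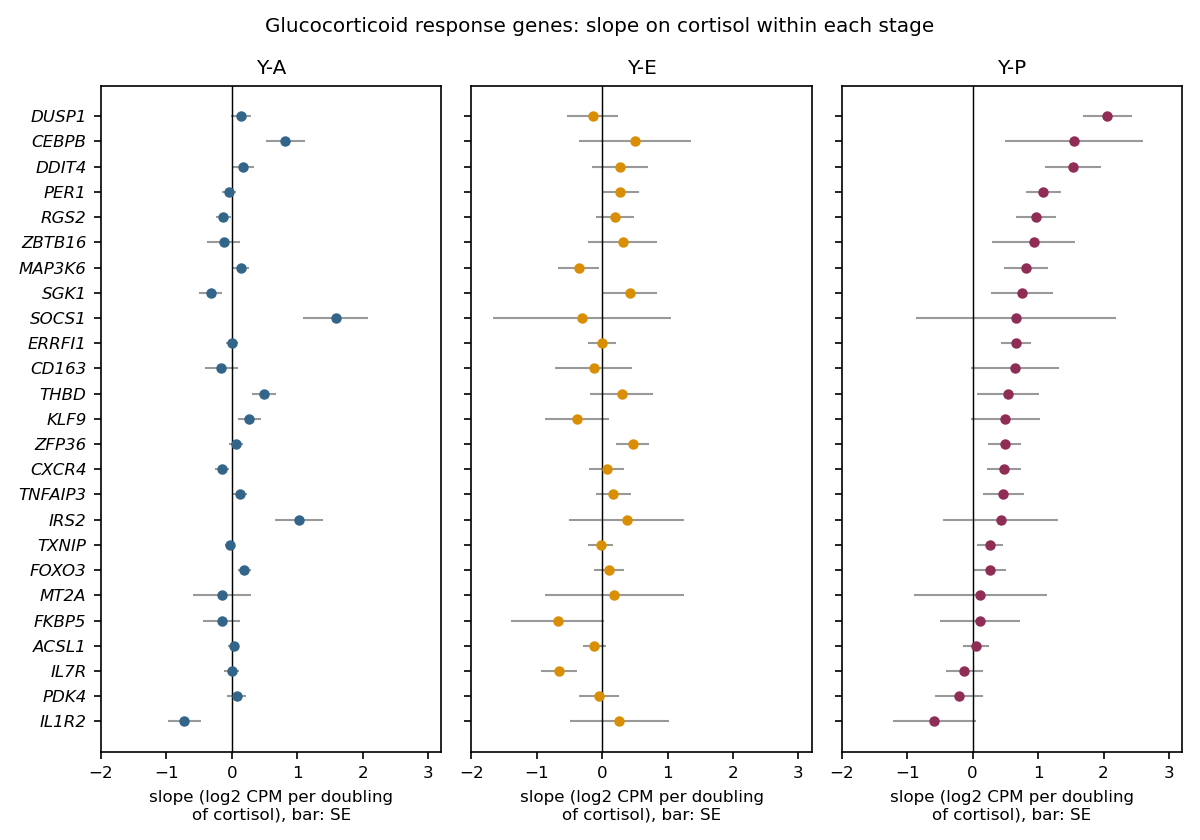
Slope on cortisol (log2 CPM per doubling, point) with its SE (bar) for the 25 glucocorticoid response genes within Y-A, Y-E and Y-P, sorted by the Y-P slope. In Y-P 22 of the points lie right of 0, led by *DUSP1* at 2.06, while in Y-A and Y-E 14 do.

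A pair of Y-P libraries carried much of these slopes. Leaving out 1 Y-P library at a time gave list medians from 0.33 (without replicate 6) to 0.73 (without replicate 5), with 21 to 23 genes above 0. Without both replicates 2 and 6, 17 of the 25 slopes were above 0 and the median was 0.25. Of all tested genes 49.0% were above 0, with a median of −0.022. At an unadjusted p under 0.05 (edgeR) 1 gene of the list was positive and 2 were negative, beside 727 and 615 of all 14508. Medians of the other lists ran from −0.79 (T cells) to 1.56 (interferon response) in this fit, so 0.25 did not single out the response list. *DDIT4* then had a slope of 1.84 ± 1.02, *ERRFI1* 0.75 ± 0.50 and *PER1* 0.65 ± 0.55, but *DUSP1* had −0.27 ± 0.49 and *RGS2* −0.11 ± 0.54. *FKBP5* had −3.93 ± 1.20 among these 4 libraries. With the replicate block 21 of the 25 were above 0 in the Y-P group with a median of 0.67, and 7 instead of 6 were at the threshold, though not *MAP3K6* (0.72). With library size alone 22 were above 0 with a median of 0.56.

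Immediate-early genes, which respond within minutes to growth factors, stress and handling of cells, were in part high in the same pair of libraries. All 16 of the list were in the table and tested, and 14 had a pooled slope above 0, with a median of 0.17 (0.033 to 0.45 over the 32 other settings). At an unadjusted p under 0.05, 5 had a positive pooled slope: *NR4A1* (0.45 ± 0.12), *JUNB* (0.35 ± 0.13), *IER2* (0.49 ± 0.18), *JUN* (0.40 ± 0.14) and *JUND* (0.61 ± 0.27), beside 5.6% of all tested genes. *IER2* and *JUND* were not at the threshold with the replicate block, at slopes of 0.51 and 0.60. Within the Y-P group 14 of 16 were above 0 (49.8% of all tested genes) with a median of 0.67, and 7 had an unadjusted p under 0.05, all positive (3.77% of all). Others of the list had Y-P slopes near or below 0, such as *IER2* (0.021), *EGR3* (−0.056) and *MYC* (−0.30). The medians were 0.033 in the Y-A group and 0.063 in the Y-E group, with 9 of 16 above 0 in each.

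*FOSB* (chr20:62579169-62587248), an AP-1 subunit, had a Y-P slope of 2.68 ± 0.49 (unadjusted p = 5.03e-05, adjusted p = 0.365), with 18.4, 12.9, 17.8, 16.1, 55.8 and 192 CPM from the lowest to the highest cortisol. *FOS* had 293, 88.5, 92.5, 56.5, 448 and 1076 CPM in the same order and a Y-P slope of 1.62 ± 0.62. In the Y-A and Y-E groups no library exceeded 71.4 CPM for *FOS* or 15.2 CPM for *FOSB*. *EGR1* (2.33 ± 0.85), *EGR2* (1.75 ± 0.48), *ATF3* (1.07 ± 0.35), *NR4A1* (1.07 ± 0.35) and *JUN* (0.99 ± 0.38) completed the 7. *ATF3*, at 16.9 and 16.3 CPM in Y-P replicates 2 and 6, was no higher there than in Y-A replicates 5 and 1, at 20.2 and 18.6 CPM. *NR4A1*, an orphan nuclear receptor, also had positive slopes in the other stages, 0.97 ± 0.34 in the Y-E group and 0.31 ± 0.12 in the Y-A group, and its Y-P levels, 3.55 to 8.43 CPM, had the order of cortisol. *RGS1*, a regulator of chemokine receptor signalling that was chosen after its values were seen, lay at 154 and 133 CPM in Y-P replicates 6 and 2 and at 13.1 to 27.7 CPM in the other Y-P libraries.

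Without Y-P replicates 2 and 6, 8 of the 16 immediate-early slopes were above 0 and the median was −0.11, and *FOS* had a slope of −3.34 ± 0.68. The high levels of *FOSB*, *EGR2*, *RGS1* and *DUSP1* were those of the 2 pregnant cows with the highest cortisol, and the other 4 libraries did not follow the order of cortisol. Over all genes, a difference of slopes between stages reached an unadjusted p under 0.05 for 961 genes (6.62%) and an adjusted p under 0.05 for 0 (0%). Without Y-P replicate 5, which combined the lowest cortisol with 293 CPM of *FOS*, the edgeR test called *DUSP1* (adjusted p = 0.00125), *FOSB* (adjusted p = 0.0056) and *FOS* (adjusted p = 0.0127). No other fit that left out 1 library called a gene, the next smallest adjusted p being 0.196 (edgeR), without Y-A replicate 6. The DESeq2 likelihood-ratio test on all 18 libraries called 16 genes, among them *DUSP1*, *FOSB*, *RGS1* and *LPAR6*.

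Cell type markers gave values beside this pattern. Within Y-P 2 of 12 neutrophil markers had a slope above 0, with a median of −0.45, while 8 of 10 monocyte markers did, with a median of 0.18. The neutrophil median was 0.011 with the replicate block and −1.10 without replicate 2, and the monocyte median was −0.042 without replicate 6. Platelet markers had a Y-P median of 0.091, which was −0.24 without replicate 5, and the summed platelet markers stayed between 166 and 228 CPM. Hemoglobin transcripts ran from 0.0272% to 0.376% of the counts in the Y-P group, with the highest share in replicate 6. Their part in the slopes of the response genes was not tested.

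**Figure D4:**
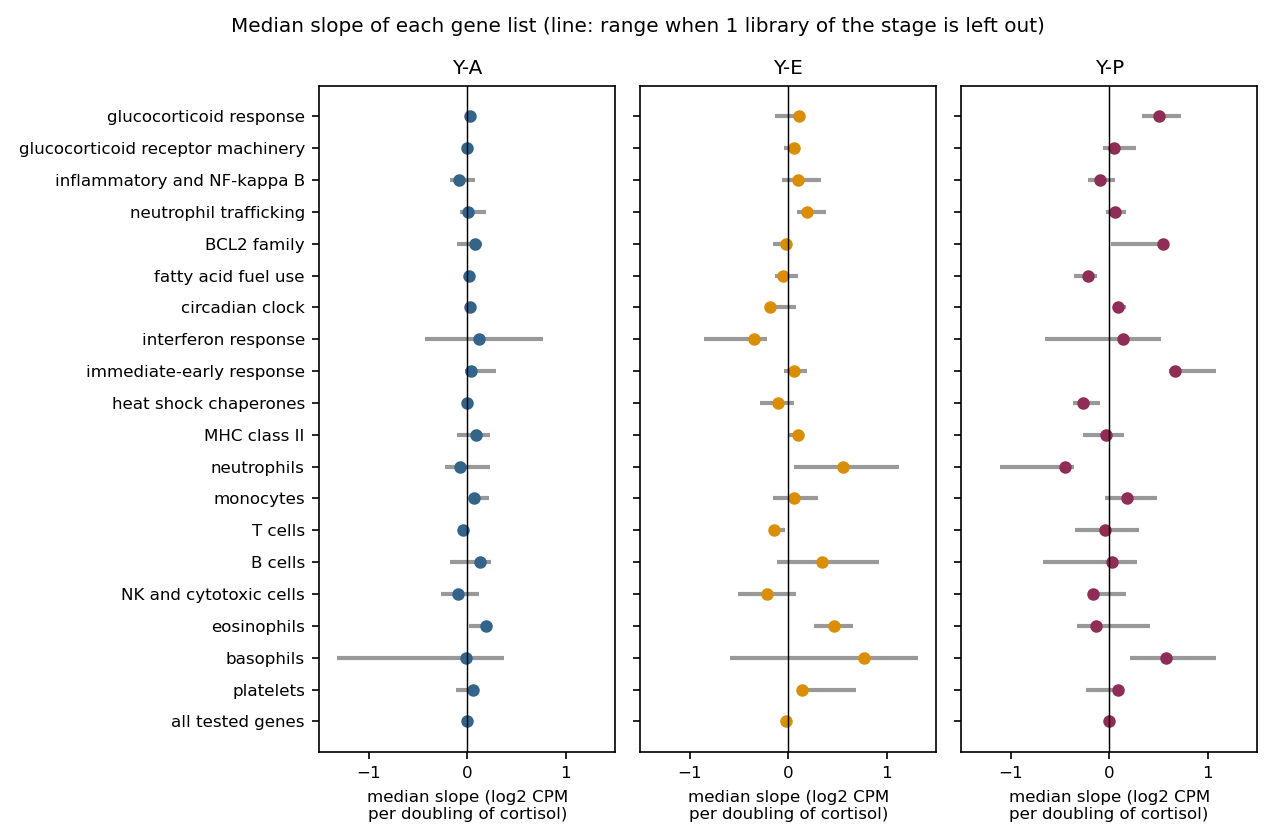
Median slope of each gene list within Y-A, Y-E and Y-P (point), with the range of that median when 1 library of the stage is left out (line); the reticulocyte list, with a Y-E median of −2.94, is left out of the plot. In Y-P the glucocorticoid response list (0.50) and the immediate-early list (0.67) lie right of 0 over the whole range, as do the clock, BCL2 family and basophil lists, and the heat shock list (−0.26) lies left of it, as do the neutrophil and fatty acid lists.

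Heat shock chaperones, only some of which fold the unliganded receptor, were a list of which 10 genes were tested. In each stage 4 of the 10 had a slope above 0, against 50.0%, 47.9% and 49.8% of all tested genes in anestrus, estrus and pregnancy. The Y-P median was −0.26, with −0.36 to −0.097 when 1 Y-P library was left out. *HSP90AB1*, the constitutive cytosolic HSP90, had a Y-P slope of −0.59 ± 0.20 and lay at 1123, 1006, 702, 677, 677 and 678 CPM from the lowest to the highest cortisol. *HSPA9*, the mitochondrial HSP70, had −0.44 ± 0.16 (194 CPM in the lowest-cortisol and 135 CPM in the highest-cortisol library) and *HSPA4* −0.46 ± 0.21. Without Y-P replicates 2 and 6, 0 of the 10 were above 0, and the median was −0.36. The median was −0.0078 in the Y-A group and −0.11 in the Y-E group, where 2 genes were at the threshold with negative slopes (3.82% of all), against 3 in the Y-P group (5.16% of all). *HSP90AB1* overlaps *TMEM151B* on the same strand. *HSF1*, the transcription factor of these genes and a member of the list, had a pooled slope of 0.24 ± 0.09.

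Of the receptor's own machinery 18 names were listed, 14 were in the table and 11 were tested. *NR3C2*, *HSD11B1* and *HSD11B2*, the mineralocorticoid receptor and the enzymes that activate and inactivate cortisol, were in the table but too low to test. Pooled slopes were above 0 for 7 of the 11, and the median of 0.0063 lay next to that of all genes and was −0.026 with library size alone. *H6PD*, which supplies the cofactor of the cortisol-activating enzyme, had a slope of 0.21 ± 0.09 and an unadjusted p under 0.05. The slope of *H6PD* with the replicate block was 0.080 (edgeR, adjusted p = 0.83).

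Inflammatory cytokines and NF-kappa B subunits had pooled slopes below 0 in 9 of 12 tested genes, with a median of −0.062. *IL1A* (−0.43 ± 0.16) and *IL1B* (−0.32 ± 0.11) were at the threshold on the negative side and *RELB* (0.20 ± 0.09) on the positive side. *IL1B* lay at 476 CPM in the lowest-cortisol and 175 CPM in the highest-cortisol Y-A library. The 6 Y-P libraries had 167, 157, 149, 147, 93.1 and 84.6 CPM from the lowest to the highest cortisol, without an exception, with a slope of −0.87 ± 0.27. In the Y-E group it was lowest, at 182 CPM, in the lowest-cortisol library and highest, at 382 CPM, in the highest-cortisol library, with a slope of 0.49 ± 0.25. The 3 slopes differed at an unadjusted p of 0.00433 (adjusted p = 0.71). The lowest-cortisol Y-E library was replicate 6, and leaving out 1 Y-E library at a time gave Y-E slopes from 0.18 to 0.75. With the replicate block none of the 3 genes was at the threshold, at slopes of −0.33 for *IL1A*, −0.14 for *IL1B* and 0.20 for *RELB*, and the Y-P slope of *IL1B* was −0.39. The median of the list with the block was 0.0054, and without Y-A replicates 1 and 5 it was 0.10.

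Genes of neutrophil trafficking had 6 of 11 slopes above 0 and a median of 0.016, which was −0.019 with library size alone. *ITGB2*, the beta chain of the leukocyte integrins (0.20 ± 0.06), and *MMP25*, a membrane-bound metalloprotease of neutrophils (0.29 ± 0.10), were positive at the threshold, and *FAS*, the death receptor, negative (−0.19 ± 0.08). *ITGB2* ran from 650 to 1091 CPM in the Y-A group, with these values in the libraries of lowest and highest cortisol. Clock genes had 11 of 17 slopes above 0, with *ARNTL* (−0.19 ± 0.07) and *CLOCK* (−0.23 ± 0.08), the pair of activators of the clock, negative at the threshold. With the block neither *FAS* (−0.15) nor *ARNTL* (−0.071) was at the threshold. *CLOCK* overlaps a gene on the other strand.

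Interferon response genes had 16 of 19 slopes above 0, beside 47.9% of all tested genes, with a median of 0.072 and only *IFI6* at the threshold (0.67 ± 0.22). *IFI6* lay at 51.4 CPM in Y-A replicate 1 and had a Y-A median of 6.04 CPM, and without Y-A replicates 1 and 5 its slope was −0.04. The pooled median of the list was −0.084 without these 2 libraries. Without Y-A replicate 1 the Y-A median of the list was −0.43, and without Y-A replicate 5 it was 0.77. In the Y-E group 4 of the 19 slopes were above 0, with a median of −0.35. Class II MHC genes (6 of 8 above 0), BCL2 family genes (6 of 7) and genes of fatty acid use (6 of 13) had none at an unadjusted p under 0.05. *PDK4*, which diverts cells from glucose to fat, had a slope of 0.02 ± 0.12.

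Among the 9 lists of cell type markers, that of T cells had 10 of 13 slopes below 0 and a median of −0.057, which was −0.011 with the replicate block and below 0 in all 32 other settings. *CD3G*, a chain of the T cell receptor complex (−0.23 ± 0.08), was among those at the threshold. NK and cytotoxic genes had 7 of 10 below 0, with *KLRK1*, the receptor NKG2D, at −0.27 ± 0.10. B cell markers had 10 of 11 above 0 and a median of 0.10, with none at the threshold, and with the replicate block the median was −0.072. Eosinophil markers were above 0 in all 5 tested, with *CEBPE*, a factor of granulocyte maturation, at 0.30 ± 0.14. All 5 were also above 0 within the Y-A group and within the Y-E group, but 0 of the 5 within the Y-P group. Their Y-P median was −0.13, and it was 0.41 without Y-P replicate 5. Monocyte markers had 6 of 10 above 0, with *FCGR1A*, an Fc receptor (0.50 ± 0.22), among those at the threshold. *FCGR1A* overlaps histone genes on the other strand. With the replicate block *CD3G* (−0.19), *KLRK1* (−0.23), *CEBPE* (0.33) and *FCGR1A* (0.26) were not at the threshold. The monocyte median of 0.024 was −0.013 with library size alone. Neutrophil markers (6 of 12 above 0), platelet markers (4 of 8) and basophil markers (3 of 4) had none at the threshold. Within the Y-E group 10 of 12 neutrophil markers had a slope above 0, with a median of 0.56, which was 0.061 without Y-E replicate 6. The summed neutrophil markers of that library, 5573 CPM, were the lowest of the Y-E group, whose median was 11181 CPM.

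Reticulocyte markers, 9 of which were tested, had 7 pooled slopes above 0 and a median of 0.089. Their sum ran from 755 to 12154 CPM in the Y-A group, from 375 to 5377 CPM in the Y-E group and from 231 to 303 CPM in the Y-P group. The highest Y-E value was that of replicate 6, and the Y-E median of the list, −2.94, was −0.70 without it. The pooled median without Y-E replicate 6 was 0.39.

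Across the KEGG pathways of the deposited annotation, 278 had at least 20 tested genes, and their median slopes ran from −0.092 to 0.074. Genes are given here in the pathways that this annotation assigns them to. The lowest were type I diabetes mellitus (−0.092), graft-versus-host disease (−0.089), homologous recombination (−0.088), malaria (−0.087) and the Fanconi anemia pathway (−0.080). The first 2 share *IL1A*, *IL1B* and *FAS*. In malaria *CD40LG*, a signal of helper T cells (−0.32 ± 0.11), and *KLRK1* lay below 0, and *ITGB2* and *TGFB1* (0.23 ± 0.07) above it. Among the DNA repair genes *RAD54B* (−0.22 ± 0.09), *FANCI* (−0.22 ± 0.09) and *PMS2* (−0.14 ± 0.06) were at the threshold on the negative side, and *POLD1* (0.27 ± 0.12) and *FANCE* (0.18 ± 0.08) on the positive side.

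The highest medians were those of bile secretion (0.074), acute myeloid leukemia (0.071), basal cell carcinoma (0.070), Notch signaling (0.069) and cortisol synthesis and secretion (0.069). In Notch signaling *NOTCH1* (0.45 ± 0.14), *NOTCH3* (0.59 ± 0.21), the fringe glycosyltransferase *LFNG* (0.18 ± 0.08) and *DVL3* (0.19 ± 0.08) were at the threshold, and no member was on the negative side. The pathway of cortisol synthesis held, in blood, *NR4A1*, the calcium channel *ORAI1* (0.39 ± 0.11) and *SLC35F6* (0.23 ± 0.07) on the positive side and *CREB3* (−0.19 ± 0.07) on the negative side. *CDKN1A*, the cell cycle inhibitor p21 (0.65 ± 0.18), *PML* (0.31 ± 0.12) and *AXIN1* (0.24 ± 0.08) came from the cancer pathways.

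Among pathways of general cell functions, the ribosome (242 genes) had a median of −0.015, oxidative phosphorylation (132 genes) one of 0.0075, the proteasome (57 genes) −0.040, the spliceosome (179 genes) −0.043 and the cell cycle (134 genes) −0.049. Of the immune pathways, T cell receptor signaling had a median of −0.039 with 37.2% of 137 genes above 0, and B cell receptor signaling one of 0.043 with 70.2% of 84 genes above 0, against 47.9% of all tested genes. Lysosome genes had 12 positive and 2 negative slopes at an unadjusted p under 0.05 among 142, beside 5.6% and 2.75% of all tested genes, and a median of 0.039.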

How the data were processed

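Whole blood of 6 yaks was sequenced as poly(A) RNA in 3 stages (18 libraries). According to the submitters' processing notes and the methods, reads were trimmed with cutadapt 1.9, aligned with HISAT2 2.2.1 and assembled with StringTie 2.1.6. The authors deposited whole-number counts, which are not normalized, and FPKM values per gene. How the counts were made is not given in the sources used here. Groups came from the sample titles. The deposited columns of the authors' own annotation gave gene positions (genome named only by its Ensembl version) and KEGG pathways.

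The counts went into edgeR 4.0.16 under R 4.3.3 (two-sided quasi-likelihood test on stage and log2 cortisol centred within stage, TMM normalization, low counts removed by filterByExpr, 14 residual degrees of freedom) and Benjamini-Hochberg adjustment over all tested genes. Slopes within stages came from the model with the interaction. Alternatives used DESeq2 1.42.0 and limma 3.58.1 on log2(FPKM + 1) or log2(FPKM + 0.1), other scalings, filters and hormones, and left out libraries. CPM are TMM-scaled. The fits were tested on simulated data. Cortisol came from the study's hormone table and was used as a covariate only.

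Genes were named by a rule: in each direction the 12 smallest p among genes with a symbol, a mean of at least 1 CPM and 1 sign in 18 leave-one-out fits, besides list members with an unadjusted p under 0.05 and all glucocorticoid response genes. Genes of the extreme pathways, and those given for single stages, were chosen after their values were seen. Some genes that this rule names are not reported here. The members and the 20 lists were chosen with earlier results of these data known. The replicate numbers were taken as cows, since the methods state that the animals were tracked. Between same-numbered libraries the deviations from the stage means correlated at −0.0544 to 0.515 (median 0.182). The p-values measure the spread between these libraries and do not separate animals from samplings of 1 animal. Except in the fits with the replicate block, they treat libraries of the same cow as independent.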

Additional observations from a re-analysis of the deposited data

Results flagged for a closer look

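In 16 of 75 groups of 6 libraries examined, 1 library lay further from its nearest neighbour than Dixon's 95% limit for 6 values allows, a limit that chance passes in about 1 of 20 groups. The genes examined had been chosen for their slopes on cortisol, to which the libraries at the ends of the cortisol order contribute most, so the number is not comparable with that chance. In the Y-A group, replicate 1 (highest cortisol) stood apart for *UBALD2* (95.7 CPM), *GPBAR1* (8.74 CPM), *DYNC2I2* (14.2 CPM) and *TTI2* (12.1 CPM), and replicate 5 (lowest cortisol) for *LPAR6* (71.6 CPM), *ANKRD22* (30.3 CPM) and *LY9* (189 CPM). In the Y-E group, replicate 3 stood apart for *DYNC2I2* (13.1 CPM), replicate 2 for *ZNF226* (19.6 CPM), replicate 5 for *LY9* (188 CPM) and replicate 6 for its hemoglobin share (8.36%). In the Y-P group, replicate 5 stood apart for *AKAP12* (9.67 CPM), *ANKRD22* (12.1 CPM) and *LY9* (196 CPM), replicate 3 for *CYB561D1* (25.5 CPM) and replicate 6 for its hemoglobin share (0.376%).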

How the results depend on the processing

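The count of genes at an adjusted p under 0.05 was 0 with every edgeR and limma setting run and 26 with the DESeq2 Wald test. At an unadjusted p under 0.05, leaving out 1 library gave 597 to 1489 genes, 358 to 996 positive and 239 to 648 negative (lowest without Y-A replicate 1). Without both Y-A replicates 1 and 5 there were 606 genes (257 positive), with Y-A alone 747 (494 positive, 253 negative), with Y-E and Y-P alone 481 positive and 844 negative, and with no stage factor 479 positive. Ranked cortisol gave 616 negative slopes, linear cortisol 633. With 11-deoxycortisol in place of cortisol 740 genes were at the threshold (450 positive) and with cortisone 318 (194 positive, 124 negative). With cortisone the slopes of *LPAR6* (0.027) and *PSMC6* (0.017) changed sign. The cause of these shifts was not tested. Scaling by library size gave 436 positive and 713 negative slopes, limma 442 and 711 with a pseudocount of 1 and 445 and 813 with 0.1, and no filter gave 724 negative. With the replicate block, which pairs libraries of 1 cow, 1184 genes were at the threshold (660 positive, 524 negative), 561 of them shared. The block changed the side of the threshold for *LY9* and *ANKRD22* among the 24 named genes. A difference of slopes between stages was called for 0 to 3 genes when 1 library was left out (576 to 1284 unadjusted), for 1 without Y-A replicates 1 and 5, for 1 with the block (1848 unadjusted), the unnamed ENSBGRG00000002567 in both, and for 16 with DESeq2. Within Y-P the block gave 885 positive and 1335 negative slopes at an unadjusted p under 0.05, against 547 and 749. With 6 libraries a stage and most of the cortisol range in 2 libraries, a p above the threshold does not show that a gene is unrelated to cortisol. Stage-wise slopes, their leave-one-out ranges and the fit without Y-P replicates 2 and 6 were chosen after seeing the data.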
